A study of Homo sapiens with 4 samples.

Results

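Short arm band 12p13 of human chromosome 12 carries a run of genes around NANOG that are known from pluripotent cells and germ cells. The genes described here are DPPA3, GDF3, SLC2A3, SLC2A14, APOBEC1 and NANOGNB, which neighbour NANOG, and LINC02972, a long intergenic RNA farther along the same arm. They are 7 of the 62696 genes counted, matched by symbol, and each symbol matched 1 gene. They were chosen because DPPA3, GDF3 and LINC02972 were low in the libraries labelled as knockdown, so their differences from the control are a description and carry no test.

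NT2 (NTERA-2) is a human embryonal carcinoma line, a tumour counterpart of pluripotent embryonic cells. Its total RNA was sequenced in 4 libraries. The control, called that throughout, is 1 library of cells with an empty vector, whose genotype is given as wild type, and the other group is 3 libraries labelled HYDIN2 knockdown, called replicates 1 to 3. HYDIN2 is a partial copy of the motile cilia gene HYDIN. How the knockdown was made, whether the lines are clones and whether the replicates are separate cultures is not given in the sources used here, so their spread may be technical. The count columns are headed NT2_Lacz_Control and GKAP_KIF27_Set, names that match neither the vector nor HYDIN2, and the groups follow the sample titles.

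DPPA3 (also called STELLA) is a small protein of oocytes, early embryos and primordial germ cells that binds UHRF1 and limits maintenance DNA methylation. GDF3 is a secreted ligand of the TGF-beta family that acts beside NODAL through activin receptors and the co-receptor TDGF1. SLC2A3 encodes GLUT3, a high-affinity glucose transporter, and SLC2A14 is its duplicated copy. APOBEC1 is the cytidine deaminase that edits APOB mRNA in the gut, and NANOGNB is a homeobox gene beside NANOG.

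The promoters of some members are shown for the letters around their starts. RefSeq (GRCh38.p14) promoter entries, 250 bases before to 50 after the annotated start, matched 5 of the 7 members: DPPA3, GDF3, SLC2A14, APOBEC1 and NANOGNB. SLC2A3 and LINC02972 had no entry. Those of DPPA3 and GDF3, the low coding members, are printed with that of APOBEC1, which gave almost no counts, and that of SLC2A14, which was detected in every library. They lie at chr12:7711183-7711482 on the plus strand for DPPA3, and on the minus strand at chr12:7695726-7696025 for GDF3, chr12:7665859-7666158 for APOBEC1 and chr12:7872866-7873165 for SLC2A14. All run 5′ to 3′ on the strand of the gene. The SLC2A14 entry lies inside the span used for that gene below, 7812512 to 7891148. It therefore covers an internal start and not the outer start at 7891148, whose sequence was not examined. Capitals mark ATGCAAA, the core of the octamer that POU factors bind, and CATTGTT, a core that SOX factors bind, each searched on both strands. These motifs were picked after the sequences had been seen.
DPPA3: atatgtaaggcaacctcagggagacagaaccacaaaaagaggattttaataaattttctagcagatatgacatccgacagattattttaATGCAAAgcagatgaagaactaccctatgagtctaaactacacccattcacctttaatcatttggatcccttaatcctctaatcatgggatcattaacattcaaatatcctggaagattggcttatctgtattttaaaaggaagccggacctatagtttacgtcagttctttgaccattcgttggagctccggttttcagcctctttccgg
GDF3: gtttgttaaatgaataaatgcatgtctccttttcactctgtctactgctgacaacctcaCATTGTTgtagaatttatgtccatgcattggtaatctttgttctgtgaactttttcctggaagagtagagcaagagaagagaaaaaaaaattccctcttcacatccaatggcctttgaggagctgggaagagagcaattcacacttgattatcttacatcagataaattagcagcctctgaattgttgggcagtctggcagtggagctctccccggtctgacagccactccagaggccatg
APOBEC1: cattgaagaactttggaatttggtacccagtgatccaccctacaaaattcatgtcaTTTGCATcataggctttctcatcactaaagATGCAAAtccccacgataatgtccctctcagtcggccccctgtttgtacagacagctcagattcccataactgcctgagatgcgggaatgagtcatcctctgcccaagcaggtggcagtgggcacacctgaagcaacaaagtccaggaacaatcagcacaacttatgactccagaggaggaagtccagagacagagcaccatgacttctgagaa
SLC2A14: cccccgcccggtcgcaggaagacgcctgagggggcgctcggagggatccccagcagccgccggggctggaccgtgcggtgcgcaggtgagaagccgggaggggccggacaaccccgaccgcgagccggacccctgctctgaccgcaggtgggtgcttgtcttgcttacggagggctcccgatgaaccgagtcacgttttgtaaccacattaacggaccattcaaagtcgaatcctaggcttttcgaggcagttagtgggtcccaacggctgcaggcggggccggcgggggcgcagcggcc

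The DPPA3 promoter held 1 ATGCAAA, whose first base lies 161 bases before the start. The APOBEC1 promoter held 2, with first bases at 194 (on the opposite strand, read as TTTGCAT) and 164 bases before the start. The GDF3 promoter held 1 CATTGTT, beginning 191 bases before the start. No motif match was found in the NANOGNB promoter or in the SLC2A14 entry at its internal start. Among 35116 promoters of 300 bases, 4.46% held ATGCAAA and 0.222% held it at least 2 times, while 3.33% held CATTGTT. The promoters also differed in CpG dinucleotides, the sites of DNA methylation. There were 31 CpGs in this SLC2A14 entry, 6 in DPPA3, 3 in APOBEC1 and 1 each in GDF3 and NANOGNB. The median over all promoters was 14. DNA methylation was not measured here.

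The libraries held from 25181737 to 62904698 counts, the smallest being the control. Even numbers made up 65.2% to 68.0% of the nonzero values. If every read pair had given 2 counts, nearly all values would be even, so this can hold for a part of the pairs at most. Whether a part of the pairs gave 2 counts was not tested. To allow for it, all 95% intervals were computed on counts divided by 2. Intervals on undivided counts would be narrower and were not computed. Intervals and floors cover counting error only. HYDIN2, the targeted gene, was found 12 times in the control and 150, 112 and 11 times in replicates 1, 2 and 3. In CPM, counts per 1000000 of the scaled library total, these are 0.50, 2.41, 1.88 and 0.352. HYDIN2 was therefore not lower in replicates 1 and 2, and replicate 3, at 11 counts against 12, has too few counts for an order. How reads shared by HYDIN2 and HYDIN were assigned was not tested. The directions below are those of libraries labelled knockdown. Of 12 embryonal carcinoma markers, 11 had a mean of group means of at least 1 CPM, and their summed level, in which LIN28A and PODXL were the largest, was 7767 CPM in the control and 7686 to 8852 CPM in the others. Of the 11, 5 were below the control in all 3 labelled knockdown libraries and 2 above it, and DNMT3B alone was at least 2-fold lower in each. L1TD1, an RNA-binding protein of pluripotent cells, went from 472 CPM to 241, 239 and 227 CPM. The marker under that minimum, ZFP42, was at 0.167 CPM or below. The 6 neural markers summed to 189 CPM in the control and to 321 to 361 CPM in the labelled knockdown libraries, with PAX6 at 0 in the control. Most of this sum was NES, at 167 CPM against 291, 274 and 270 CPM, which did not differ 2-fold. Of the 5 neural markers at that minimum, 2 were at least 2-fold higher in each labelled knockdown library and 0 were lower. Over all genes 3.65% were higher in this way. The 2 were PAX6, at 15.4, 13.1 and 2.95 CPM in replicates 1, 2 and 3, and MAP2, from 9.16 CPM to 24.0, 22.8 and 34.5 CPM. The 5 trophoblast markers summed to 30.3 CPM against 61.1 to 146 CPM, with CGB3 at 0 in every library. GATA3 was the largest of them in each library, and KRT7 had 7.17 CPM against 11.4, 12.3 and 4.45 CPM. Of the 3 trophoblast markers at that minimum, TFAP2A alone was at least 2-fold higher in each, and 0 were lower. It went from 4.54 CPM to 15.1, 13.6 and 70.3 CPM. The 6 mesenchymal markers summed to 470 CPM in the control and 347 to 550 CPM in the others, with DCN at 0 in 3 of the 4. The 5 endoderm markers summed to at most 2.08 CPM and the 3 blood markers to at most 0.335 CPM. The part of the neural and trophoblast markers in the results below was not tested. In bulk RNA, fewer cells that express a gene and less of its RNA per cell cannot be told apart.

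DPPA3 and LINC02972 were the most reduced members, between 10.9-fold and 32.8-fold lower in each labelled knockdown library. GDF3 was about 4-fold lower in replicates 1 and 2 and less than 2-fold lower in replicate 3. The glucose transporter SLC2A3 was somewhat higher in all 3, its copy SLC2A14 was higher in replicates 1 and 2 and not in replicate 3, and APOBEC1 and NANOGNB were near the limit of detection.

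**Figure D1:**
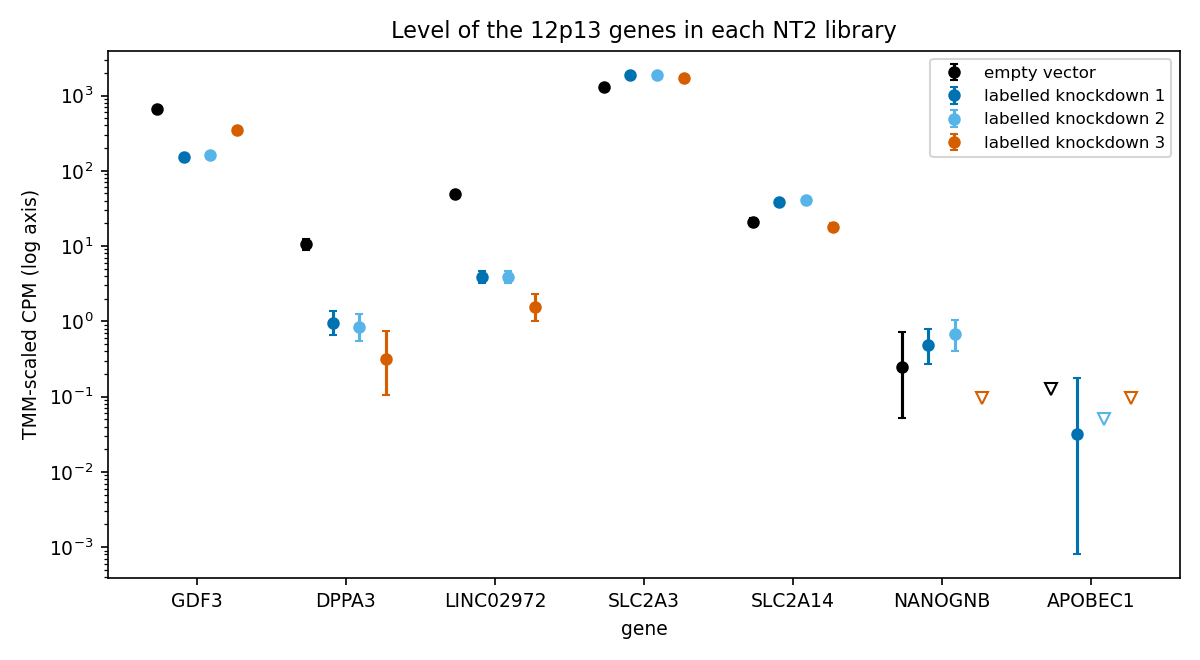
Level of each gene as TMM-scaled CPM on a log axis in the 4 NT2 libraries, with 95% Poisson intervals for counting error and open triangles at the 3-count floor where a library had 0 counts. DPPA3 and LINC02972 lie below the control in every labelled knockdown library, while SLC2A3 lies above it.

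DPPA3 (ENSG00000187569.3; chromosome 12, 7711454 to 7717559, plus strand, GENCODE 29 on GRCh38) had 252 counts in the control and 60, 50 and 10 counts in replicates 1, 2 and 3. These are 10.5 CPM against 0.964, 0.838 and 0.320 CPM. All 3 labelled knockdown libraries were low, and the interval of each (0.650 to 1.38, 0.542 to 1.24 and 0.104 to 0.747 CPM) lay below that of the control, 8.74 to 12.5 CPM. The reduction was 10.9-fold in replicate 1 (95% interval 7.27 to 16.8), 12.5-fold in replicate 2 (interval 8.11 to 20.1) and 32.8-fold in replicate 3 (interval 13.7 to 103). The mean log2 difference was -3.94 ± 0.80 (SD, n = 3). The rows of 3 annotated DPPA3 pseudogenes had 0 counts in all libraries.

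LINC02972 (ENSG00000249790.3; chromosome 12, 8788257 to 8795789, plus strand) is a long intergenic RNA that starts 1077 kb beyond DPPA3. It had 1189 counts in the control and 239, 230 and 49 counts in replicates 1, 2 and 3, or 49.5 CPM against 3.84, 3.85 and 1.57 CPM. Replicates 1 and 2 had the same level within counting error, with a ratio of 1.00 (0.770 to 1.31), and replicate 3 was lower still. The reductions were 12.9-fold (10.6 to 15.8), 12.9-fold (10.5 to 15.8) and 31.6-fold (21.1 to 49.4), a mean log2 difference of -4.09 ± 0.73 (SD, n = 3). A2ML1-AS1, annotated on the opposite strand across it, had 5 counts in the control and 26, 14 and 10 in replicates 1, 2 and 3.

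GDF3 (ENSG00000184344.4; chromosome 12, 7689782 to 7695776, minus strand), whose start lies 15.7 kb from that of DPPA3, had 15676 counts in the control and 9412, 9737 and 10821 counts in replicates 1, 2 and 3. On the CPM scale it was at 653 against 151, 163 and 346. All 3 labelled knockdown libraries were below the control, but replicate 3 was well above the other two. Replicates 1 and 2 were 4.32-fold (4.17 to 4.48) and 4.00-fold lower (3.86 to 4.15), and replicate 3 was 1.89-fold lower (1.82 to 1.95). The mean log2 difference was -1.68 ± 0.66 (SD, n = 3). With transcript length and GC trends removed, the log2 difference in replicate 3 was -0.20, against -0.91 without that step.

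**Figure D2:**
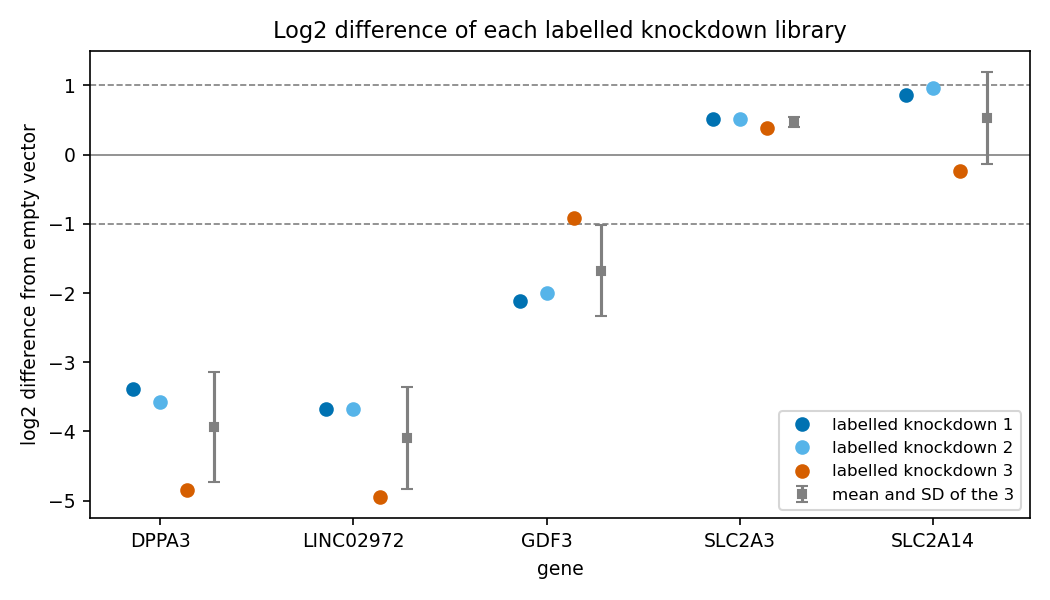
Log2 difference of each labelled knockdown library from the control for the 5 genes above the expression minimum, with the mean and SD of the 3 libraries as grey squares and dashed lines at 2-fold. The points of DPPA3 and LINC02972 are lowest in replicate 3, whereas replicate 3 is the highest of the 3 for GDF3. For DPPA3 the ratio of replicate 3 to replicate 2 had an interval, 0.114 to 1.02, that included 1.

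To read the members beside all other genes, a gene was called lower or higher when every labelled knockdown library lay at least 2-fold from the control on that side. Genes with a mean of group mean CPMs of at least 1 entered. Of the 7 members, 5 passed the expression minimum. DPPA3 and LINC02972 were lower by this rule and none was higher, beside 432 lower genes among 15880 (2.72%) and 580 higher genes (3.65%). With total-count scaling the split was 312 lower and 734 higher. Since the members were chosen on this contrast, nothing is read from their count. By mean log2 difference LINC02972 and DPPA3 were the 3rd and 4th lowest of the 15880 genes, and GDF3 was the 192nd. In replicates 1 and 2 alone GDF3 was also at least 2-fold lower, beside 846 of 15797 genes (5.36%). edgeR's quasi-likelihood test with Benjamini-Hochberg adjustment called 0 of 26029 genes (0%), with 3023 at an unadjusted p under 0.05, and the Wald test of DESeq2 called 388 of 15431 (2.51%), or 253 when all genes were given to it. With 1 control library, both compare libraries and not conditions.

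The pattern over the 3 labelled knockdown libraries was nearly the same in DPPA3 and LINC02972. Their log2 differences were -3.39, -3.58 and -4.85 for DPPA3 and -3.67, -3.67 and -4.94 for LINC02972, a Euclidean distance of 0.316 over the 3 values. No other gene of the 15880 lay nearer to either, but both were chosen as low on these same differences. They were the 3rd and 4th lowest of these genes, where few others could lie near, so nothing is read from their nearness. The value of DPPA3 in replicate 3 also rests on 10 counts, with an interval of 13.7-fold to 103-fold. Among the 14813 of these genes that have a symbol and are not members, the 5 nearest to DPPA3 were DMRT1, PNPLA5, SPDYC, SUSD3 and PLEKHB1, at distances from 1.45 to 1.97, and the same 5 were nearest to LINC02972, at 1.52 to 2.11. DMRT1, a transcription factor of the gonad and germ line, went from 46 counts in the control to 6, 20 and 2 counts. GDF3 lay 4.43 from DPPA3, with 303 genes nearer to DPPA3 than it. Its own nearest genes were RPL7AP70, GATM, PTMA, FAM163A and SLC9A3R1, at 0.112 to 0.246. GATM, an enzyme of creatine synthesis, had log2 differences of -2.04, -2.02 and -1.09. All these profiles share the same empty vector library and the same 3 libraries, so likeness is a description of 4 libraries.

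SLC2A3 (ENSG00000059804.16; chromosome 12, 7919230 to 7936275, minus strand) gave 31568 counts in the control and 116756, 111849 and 53495 counts in replicates 1, 2 and 3, or 1315 CPM against 1875, 1874 and 1712 CPM. All 3 labelled knockdown libraries were above the control and close to each other. The ratios to it were 1.43 (1.40 to 1.45), 1.42 (1.40 to 1.45) and 1.30 (1.28 to 1.33), a mean log2 difference of 0.47 ± 0.08 (SD, n = 3). This was under the 2-fold rule.

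SLC2A14 (ENSG00000173262.12; chromosome 12, 7812512 to 7891148, minus strand) had 505 counts in the control and 2369, 2458 and 557 counts in replicates 1, 2 and 3, or 21.0 CPM against 38.0, 41.2 and 17.8 CPM. Replicates 1 and 2 were above the control, at ratios of 1.81 (1.58 to 2.08) and 1.96 (1.71 to 2.25). For replicate 3 the ratio was 0.848 and its interval, 0.712 to 1.01, included 1. The mean log2 difference, 0.53 ± 0.67 (SD, n = 3), was smaller than its spread.

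SLC2A3 and SLC2A14 are near-identical copies, so reads of the abundant gene can be assigned to the scarce one. Their longest open reading frames in GENCODE 29, of 1491 and 1608 nt, matched at 1442 of 1491 aligned bases (96.7%), and the longest identical stretch was 137 nt. SLC2A14 took 1.57% of the counts of the pair in the control (exact Clopper-Pearson 95% interval 1.39% to 1.78%). Replicates 1 and 2 gave 1.99% (1.88% to 2.10%) and 2.15% (2.03% to 2.27%), and replicate 3 gave 1.03% (0.914% to 1.16%). The share was thus above the control in replicates 1 and 2 and below it in replicate 3, by more than counting error. How the counting assigned reads that fit both genes was not tested. Summed over both genes, the level was 1336 CPM in the control and 1913, 1915 and 1730 CPM in the others.

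**Figure D3:**
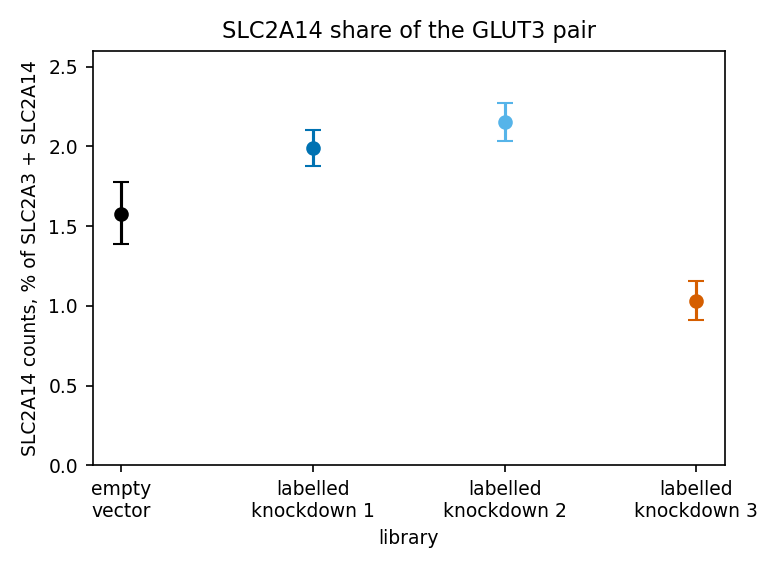
SLC2A14 counts as a percentage of the counts of SLC2A3 and SLC2A14 together in each library, with exact 95% Clopper-Pearson intervals for counting error on counts divided by 2. Replicates 1 and 2 are above the control, at 1.99% and 2.15% against 1.57%, and replicate 3 is below it at 1.03%.

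NANOGNB (ENSG00000205857.2; chromosome 12, 7765216 to 7774121, plus strand) had 6 counts in the control and 30, 40 and 0 counts in replicates 1, 2 and 3. Its level was 0.250 CPM (0.0515 to 0.730) in the control and 0.482 and 0.670 CPM in replicates 1 and 2. The 0 counts of replicate 3 allow up to 0.0960 CPM at a floor of 3 counts or 0.192 CPM at 6 counts, the floor where each pair gives 2 counts. The ratios of replicates 1 and 2 to the control, 1.93 (0.545 to 10.4) and 2.68 (0.795 to 14.1), had intervals that included 1, and no difference could be detected at this depth. Between replicate 3 and each of the other two, the interval of the ratio did not reach 1 (upper bounds of 0.556 and 0.387).

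APOBEC1 (ENSG00000111701.7; chromosome 12, 7649400 to 7665903, minus strand) had 2 counts in replicate 1 and 0 in the other 3 libraries. The floor of 3 counts is 0.125 CPM in the control and 0.0482, 0.0503 and 0.0960 CPM in replicates 1, 2 and 3, and the floor of 6 counts, where each pair gives 2, is 0.250, 0.0964, 0.101 and 0.192 CPM. No fold is given, since every library is under both. The data do not show whether the gene was expressed below the higher of these floors.

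Per length the order of the members changed between the groups. As CPM per kb of the longest annotated transcript, the control had GDF3 at 527 above SLC2A3 at 298, then LINC02972 at 25.1, DPPA3 at 9.73 and SLC2A14 at 5.10. In each labelled knockdown library SLC2A3 was first, at 425, 424 and 388 CPM per kb, GDF3 second, at 122, 132 and 280, and SLC2A14 rank 3, at 9.22, 9.98 and 4.32. LINC02972 followed at 1.95, 1.95 and 0.795, and DPPA3 at 0.893, 0.776 and 0.297. In the control, the intervals of neighbours in this order did not overlap down to SLC2A14. In replicates 1 and 2 NANOGNB, at 0.531 and 0.739 CPM per kb, overlapped DPPA3. In replicate 3 LINC02972 (0.512 to 1.18) and DPPA3 (0.0963 to 0.692) overlapped, so their order there is not resolved, and DPPA3 overlapped the intervals of APOBEC1 (up to 0.269) and NANOGNB (up to 0.260), which had 0 counts. The other neighbours down to DPPA3 did not overlap.

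A contrast that leaves the control out sets replicate 3 against replicates 1 and 2. It has 1 library on 1 side and no test. Replicate 3 held 28552070 counts, against 62904698 and 61627449 in replicates 1 and 2. The part of this difference in depth was not tested. GDF3 was 2.29 times as high in replicate 3 as in replicate 1 (2.20 to 2.38) and 2.12 times as high as in replicate 2 (2.04 to 2.21), beside 1267 of 16105 genes (7.87%) that were at least 2-fold higher than both. LINC02972 was lower in replicate 3, 2.45-fold (1.57 to 3.95) and 2.46-fold (1.58 to 3.97), and so was SLC2A14, 2.13-fold (1.87 to 2.44) and 2.31-fold (2.03 to 2.64), beside 12.3% of genes at least 2-fold lower. DPPA3, at a mean below 1 CPM here, did not enter that count. Its ratio to replicate 1 was 0.332 (0.101 to 0.865), and for replicate 2 the ratio of 0.382 had an interval, 0.114 to 1.02, that included 1. SLC2A3 was at 0.913 of replicate 1 (0.900 to 0.927) and 0.914 of replicate 2 (0.901 to 0.927). Between replicates 1 and 2, only GDF3 differed beyond counting error among the members, at a ratio of 1.08 (1.04 to 1.12).

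The stretch of chromosome around the members was examined next. Within 1.5 Mb of the DPPA3 start, 181 annotated genes had a row and 75 passed the expression minimum, 70 of them not members. Of those 70, 0 were at least 2-fold lower in all 3 labelled knockdown libraries and 1 was higher, an unnamed intergenic RNA (ENSG00000276417), from 0.833 CPM to 1.86, 2.08 and 4.29 CPM. These shares, 0% and 1.43%, stand beside 2.72% lower and 3.65% higher over all genes, and among 70 genes they differ from them by few genes. The median log2 difference of the 70 was -0.17, against -0.02 over all 15880 genes, and 28 of them (40.0%) were below 0 and 16 (22.9%) above 0 in all 3 libraries, beside 34.2% and 30.1% of all genes. DPPA3 and LINC02972 were the only 2 of the 75 tested genes called lower. Both had been chosen as low in these libraries, so this restates the choice.

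**Figure D4:**
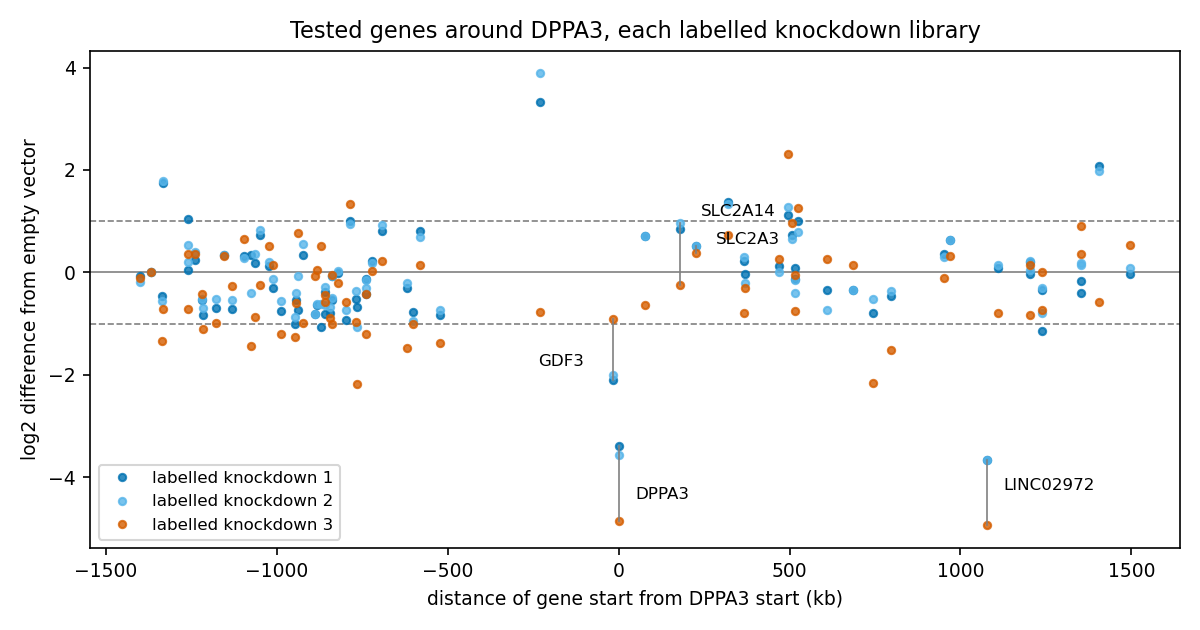
Log2 difference from the control for the 75 tested genes whose start lies within 1.5 Mb of the DPPA3 start, with 1 point per labelled knockdown library against distance in kb and dashed lines at 2-fold. The points of DPPA3 and LINC02972, chosen as low in these libraries, lie below all others, 1077 kb apart, and genes between them scatter around 0.

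Some tested genes near the members, picked by position after their values were seen, show the levels beside them. NANOG, the homeobox factor of pluripotency that starts 76.3 kb from DPPA3, had 502 CPM in the control and 820, 817 and 323 CPM in replicates 1, 2 and 3. It was above the control in replicates 1 and 2, where GDF3 was 4-fold lower, and below it in replicate 3. CD163L1, a scavenger receptor gene 231.6 kb on the other side, had 0.250 CPM in the control and 2.92, 4.32 and 0.128 CPM. FOXJ2, a forkhead factor 321 kb away, had 81.2 CPM against 211, 204 and 134 CPM. Next to LINC02972, the protease inhibitor gene A2ML1 had 8.79 CPM against 9.33, 9.67 and 5.06 CPM. Under the expression minimum, and so outside the counts above, its antisense RNA A2ML1-AS2 had 23 counts in the control. In replicates 1, 2 and 3 it had 5, 17 and 3 counts, at log2 differences of -3.00, -1.60 and -2.83. A2ML1-AS1, also under the minimum, had 5 counts against 26, 14 and 10. The polycomb gene PHC1 had 954 CPM against 1104, 1106 and 532 CPM.

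Genes that act with the members were counted from lists, beside the background of 2.72% lower and 3.65% higher. In the methylation list around DPPA3, 9 of 11 genes were tested, 2 were higher and 1 was lower, with a median log2 difference of -0.03. The lower gene was DNMT3B, a de novo DNA methyltransferase, at 795 CPM in the control and 340, 350 and 349 CPM in replicates 1, 2 and 3. The higher genes were TET3, from 35.3 CPM to 114, 101 and 130 CPM, and TET2, from 14.8 CPM to 34.0, 33.6 and 51.0 CPM. Both are dioxygenases that oxidise methylcytosine. UHRF1, the partner of DPPA3 that recruits the maintenance methyltransferase, had 54.4 CPM against 31.3, 31.1 and 71.9 CPM. DNMT1, that methyltransferase, had 288 CPM against 253, 250 and 357 CPM. Neither passed the rule.

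In the germline and naive pluripotency list 11 of 18 genes were tested, 1 was higher and 0 were lower, with a median log2 difference of -0.03. The higher gene was PRDM1, a transcriptional repressor that specifies germ cells, from 1.25 CPM to 15.8, 13.7 and 5.28 CPM. DPPA2 and DPPA4, which share a name stem with DPPA3, did not pass the rule. DPPA4 had 1398 CPM against 1146, 1238 and 604 CPM, and DPPA2 had 12.1 CPM against 9.73, 9.85 and 0.864 CPM. DPPA5 had no more than 0.0335 CPM in any library. Others of the list were above the control in replicates 1 and 2 and below it in replicate 3. Among them, TFAP2C had 83.4 CPM against 180, 174 and 67.4 CPM, and DAZL had 0.750 CPM against 3.47, 3.35 and 0.608 CPM. Of the 11 tested genes, 4 were below the control in all 3 labelled knockdown libraries and 1 was above it.

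In the list of NODAL and GDF signalling 16 of 18 genes were tested, 1 was higher and 0 were lower, with a median log2 difference of 0.30. The higher gene was LEFTY2, a secreted NODAL inhibitor, from 5.79 CPM to 21.2, 20.2 and 17.4 CPM. The co-receptor TDGF1 had 420 CPM against 285, 331 and 138 CPM. NODAL itself was scarce, at 1.54 CPM against 0.980, 0.905 and 1.02 CPM, while the ligand GDF1 had 0 counts in all libraries. Among receptors, ACVR2B had 214 CPM against 300.1, 294 and 513 CPM and ACVR1B had 61.9 CPM against 66.3, 62.8 and 59.3 CPM.

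Of 12 other glucose transporter genes 7 were tested, 1 was higher and 0 were lower, with a median log2 difference of -0.05. The higher gene was SLC2A12, which encodes GLUT12, from 2.87 CPM to 11.9, 11.8 and 7.36 CPM. SLC2A1, which encodes the widespread transporter GLUT1, had 286 CPM against 166, 161 and 249 CPM, so it was below the control in the same libraries where SLC2A3 was above it, though under the 2-fold rule. Among 12 APOBEC and AID deaminases and cofactors of APOBEC1, 4 were tested and 0 were higher or lower, with a median log2 difference of -0.40. RBM47, an RNA-binding cofactor of APOBEC1, had 45.0 CPM against 65.5, 65.6 and 30.3 CPM. APOBEC3C, a cytidine deaminase that restricts retroelements, had 44.4 CPM against 49.0, 48.9 and 22.0 CPM.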

How the data were processed

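The authors deposited raw counts of 62696 genes, 1 table a library. Per the submitters' processing notes STAR 2.7.11b, featureCounts 2.0.6, DESeq2 and the GRCh38 build (hg38) were used, with no role given. Per the labels' protocols, ribosomal RNA was depleted and libraries were strand-specific. The strand setting of the counting and the annotation release are not given in the sources used here, so counts of overlapping genes and near-identical copies are uncertain. Tables were assigned to samples from the deposit's list of files, not from their column headers.

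Scaling used edgeR 4.0.16 (R 4.3.3): TMM over genes kept by filterByExpr (factors 0.953, 0.990, 0.969 and 1.09 for the empty vector library and replicates 1 to 3). Log2 CPM used a prior count of 2. Ratios have exact binomial intervals. edgeR's quasi-likelihood test and the Wald test of DESeq2 1.42.0 were adjusted by Benjamini-Hochberg at 0.05. Places and lengths are from GENCODE 29 (58269 identifiers matched). Length and GC trends were removed with lowess (span 0.3, statsmodels 0.14.6). The fold rule, the count test and the intervals were tested on simulated data. The members, lists and alternatives were chosen with earlier results of these data known. Named genes are the members, list genes passing the rule (at most 4 per direction) or else the 2 most abundant, and the 5 nearest in pattern; other named genes were picked after their values were seen.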

Additional observations from a re-analysis of the deposited data

How the results depend on the processing

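No paired analysis was possible because the control is a single library without a replicate number. The mean log2 differences of DPPA3, LINC02972, GDF3, SLC2A3 and SLC2A14 kept their direction under every scaling and prior count run, with each replicate omitted and with trends removed. That of SLC2A3 moved from 0.47 to 0.56 with total counts and to 0.39 with the length and GC trends removed. For GDF3, leaving out replicate 3 gave -2.06 and a call as lower at 2-fold. With all 3 libraries it was called lower only by a 1.5-fold rule. NANOGNB, with 6 counts and 0 counts in 2 libraries, had a mean log2 difference of -0.20 that depended on the prior count (0.046 at 5) and ranged from -0.94 to 1.06 over omitted replicates, the last without replicate 3. It was under the expression minimum, so it had no trend-corrected value, and APOBEC1 had no value at all.

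The number of lower genes, 432, was 1035 at a mean CPM of 0.1, 254 at 5, 1526 with a 1.5-fold rule and 224 with trends removed, and 485 to 846 over omitted replicates. The number of higher genes, 580, was 1605, 377 and 1590 for the first 3 of these, and 615 to 1542 over omitted replicates, the highest of both without replicate 3. edgeR's test called 0 genes with RLE scaling and with no filter, and 17 to 11177 over omitted replicates, the last without replicate 3. DESeq2 called 388 from the genes kept by filterByExpr and 253 from all genes. Scaling and DESeq2 had first been run on all genes, so that choice of genes was made after seeing the data. With TMM over all genes, 371 genes were lower and 633 higher, and the mean log2 difference was -3.90 for DPPA3, -4.05 for LINC02972 and -1.63 for GDF3. Omitting a replicate leaves 1 library against 2, and the lone library is assumed to vary like the others. The cause of these shifts was not tested. At 10 counts for DPPA3 in replicate 3 and 6 or fewer for NANOGNB and APOBEC1 in the control, depth limits the size of any fold.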
